A study of Mus musculus with 6 samples.

Results

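The genes described here encode the adhesion molecules with which endothelial cells (ECs) capture leukocytes and circulating tumour cells: the selectins Sele and Selp, and the immunoglobulin-type molecules Vcam1, Icam1, Icam2 and Alcam. They were taken by gene symbol, as every probe set whose platform annotation gives only that symbol, which found all 6 genes, with 14 of the 45101 probe sets on the array. The samples are ECs sorted from the lungs of immunodeficient NSG mice that were 6 to 8 weeks old and had received MDA-MB-231-LM2 cells, a metastatic derivative of a human breast cancer line, into the blood. In the 3 shControl samples the cancer cells carried a control hairpin RNA, and in the 3 shTNC samples a hairpin RNA against TNC, the gene of the matrix glycoprotein tenascin C. Lungs were taken on day 20, called 3 weeks in the labels, and are labelled metastatic in both groups, so there is no tumour-free group. The paper reports that TNC knockdown reduced lung colonization by these cancer cells. Metastatic burden and the TNC of the cancer cells therefore cannot be told apart here. The targeted gene is the human one in cells that the sort removed, and NSG mice lack mature lymphocytes but keep neutrophils and macrophages, which limits what the adhesion molecules can meet in this host. The sources used here do not say whether a sample is 1 mouse or a pool.

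In ECs from shTNC lungs both selectin transcripts had lower values and Vcam1 had higher values, while Icam1 and Icam2 differed by little. The log2 difference of shTNC minus shControl was -0.55 ± 0.17 for Sele (SE, n = 3 per group), -0.28 ± 0.09 for Selp and 0.31 ± 0.10 for Vcam1. For each of these 3 genes the groups did not overlap, which among all genes was so for 12.4% in the lower and 7.36% in the higher direction. None of the 6 genes passed an adjusted p of 0.05 in limma, where the smallest adjusted p among them was 0.28. In the same fit 0 of 45101 probe sets passed (0.00%), and 13.0% had an unadjusted p under 0.05.

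Selectins are lectins of the vessel wall that let leukocytes tether and roll. E-selectin (Sele) appears on ECs after transcription is switched on by cytokines such as TNF and interleukin 1, whereas P-selectin (Selp) is also held ready in Weibel-Palade bodies, the storage granules of ECs. VCAM-1 and ICAM-1 then bind leukocyte integrins for firm adhesion, ICAM-2 does so without induction, and ALCAM binds CD6 or other ALCAM molecules. Sele, Vcam1 and Icam1 are textbook targets of the transcription factor NF-kB in cytokine-treated ECs.

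Of the 6 members, 4 (Sele, Selp, Icam1 and Alcam) matched the RefSeq promoter table, build GRCm38.p6, which gives 250 bases before and 50 bases after the annotated start. The windows of both selectins and of Icam1 are shown because the selectins had lower values, while the groups of Icam1, a cytokine-induced gene as well, overlapped. Capitals mark matches on either strand to a loose NF-kB pattern (3 G, any 5 bases, then 2 C), to GGAANTTCC, a closer form of that element, and to TGANTCA, a form of the AP-1 element. None of these matches overlaps another.
Sele, chr1:164047984-164048283, + strand: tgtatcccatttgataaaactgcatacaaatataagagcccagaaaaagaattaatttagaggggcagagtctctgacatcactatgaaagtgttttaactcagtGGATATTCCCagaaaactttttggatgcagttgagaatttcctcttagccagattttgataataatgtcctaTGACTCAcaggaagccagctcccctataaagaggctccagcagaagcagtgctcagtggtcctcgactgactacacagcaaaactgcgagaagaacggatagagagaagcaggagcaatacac
Selp, chr1:164115014-164115313, + strand: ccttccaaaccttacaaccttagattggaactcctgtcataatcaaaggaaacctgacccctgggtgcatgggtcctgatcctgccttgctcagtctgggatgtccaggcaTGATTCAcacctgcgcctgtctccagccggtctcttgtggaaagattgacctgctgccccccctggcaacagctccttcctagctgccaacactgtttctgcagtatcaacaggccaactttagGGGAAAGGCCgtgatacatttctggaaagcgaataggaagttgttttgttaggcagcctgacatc
Icam1, chr9:21015690-21015989, + strand: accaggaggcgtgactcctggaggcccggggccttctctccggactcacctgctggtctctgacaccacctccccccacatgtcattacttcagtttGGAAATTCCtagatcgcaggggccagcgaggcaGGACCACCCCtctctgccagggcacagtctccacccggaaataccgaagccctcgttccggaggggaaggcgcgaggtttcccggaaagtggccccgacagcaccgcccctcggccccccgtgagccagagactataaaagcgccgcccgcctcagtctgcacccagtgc
The loose NF-kB pattern was present once in each of the 3 windows, beginning 145 bases before the start in Sele, 15 in Selp and 120 in Icam1, but 50.8% of all 32851 promoter windows of that length hold it. GGAANTTCC was found only in the Icam1 window among these 3, at 153 bases before the start, and 0.928% of all windows hold it. TGANTCA was found in the windows of Sele, at 73 bases, and Selp, at 139 bases, and 7.81% of all windows hold it. The Alcam window held none of these letters. A match is a description of the sequence and not of a bound site.

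The sorted cells carried the marks of endothelium, but transcripts typical of other cells were read as well. All 15 pan-endothelial markers were above background, which was set at a log2 level of 7.48, the level that 95% of 44 probe sets for olfactory receptors, genes ECs should not use, do not exceed. Their mean level lay between 13.44 and 13.50 in shControl and between 13.45 and 13.48 in shTNC, and the log2 difference of Pecam1, which encodes the CD31 used in the sort, was -0.03 ± 0.08 (SE, n = 3 per group). Ptprc, which encodes the CD45 used to exclude leukocytes, had levels between 7.65 and 8.73 and a difference of 0.32 ± 0.25 with overlapping groups, and the epithelial gene Epcam one of -0.06 ± 0.14. Of 12 epithelial markers 7 were higher and 5 lower in shTNC, with a median difference of 0.11. Their mean level was 8.98 to 9.63 in shControl arrays and 8.89 to 9.94 in shTNC arrays. The fibroblast marker Col3a1 had a mean level of 12.3 over all arrays and the macrophage marker Lyz2 12.2. shControl replicate 2 stood apart on the first principal component, where it scored -43.6 while shControl replicates 1 and 3 scored -11.1 and 0.251 and the shTNC arrays 16.1 to 21.1, so values without it are given where they matter.

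Sele was the member with the largest difference. Its only probe set (1421712_at) read 9.97, 9.29 and 9.64 in shControl replicates 1 to 3 and 8.88, 9.20 and 9.19 in shTNC replicates 1 to 3. All shTNC arrays lay below all shControl arrays, although shControl replicate 2 was only slightly above the highest shTNC array. The mean level was 9.64 ± 0.34 (SD, n = 3) in shControl and 9.09 ± 0.18 in shTNC, which corresponds to a 1.46-fold lower value, with a 95% interval of the log2 difference from -0.95 to -0.15 and a limma adjusted p of 0.29. Among 13444 genes above background, 0.848% had a more negative difference, and 6.38% had a larger spread within groups. Without shControl replicate 2 the difference was -0.72, without shControl replicate 1 -0.38, and without shTNC replicate 1 -0.44, where the unadjusted limma p was 0.053.

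Selp was read by 3 probe sets, all above background and all with a negative difference. At the brightest (1449906_at) the levels were 12.00, 11.97 and 12.17 in shControl and 11.81, 11.75 and 11.72 in shTNC. These groups were separate, with means of 12.05 ± 0.10 (SD, n = 3) and 11.76 ± 0.05. The value was 1.22-fold lower in shTNC, with a 95% interval of the log2 difference from -0.49 to -0.08 and a limma adjusted p of 0.28. A second Selp probe set (1420558_at) read 11.22, 10.96 and 11.29 in shControl and 10.76, 10.87 and 10.88 in shTNC, a difference of -0.32 ± 0.11 (SE) with no overlap, whose unadjusted limma p exceeded 0.05 when shControl replicate 1, shControl replicate 3 or shTNC replicate 1 was left out. The third (1440173_x_at), whose suffix marks probes that can also bind other transcripts, differed by -0.16 ± 0.12 with overlapping groups. Fewer ECs of a kind that makes selectins and less selectin RNA per cell cannot be told apart in such bulk samples.

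Vcam1 went the other way at all 3 of its probe sets. At the brightest (1415989_at) the levels were 10.89, 10.65 and 10.86 in shControl and 11.16, 11.08 and 11.08 in shTNC, so that every shTNC array lay above every shControl array. The means were 10.80 ± 0.13 (SD, n = 3) and 11.11 ± 0.05, a 1.24-fold higher value in shTNC, with a 95% interval of the log2 difference from 0.09 to 0.53 and a limma adjusted p of 0.28. The second probe set (1448162_at) read 10.79, 10.60 and 10.88 in shControl and 11.32, 11.03 and 11.09 in shTNC, a difference of 0.39 ± 0.11 (SE). The third (1451314_a_at) read 9.84, 9.96 and 9.78 in shControl and 10.21, 10.10 and 10.06 in shTNC, a difference of 0.27 ± 0.09. With each array left out in turn, the unadjusted limma p of this probe set reached 0.072. The groups were separate at each of the 3, which report 1 transcript family and are not independent evidence. Without shControl replicate 2, the array with the lowest level at the first 2 probe sets, the difference at the brightest probe set was 0.23.

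**Figure D1:**
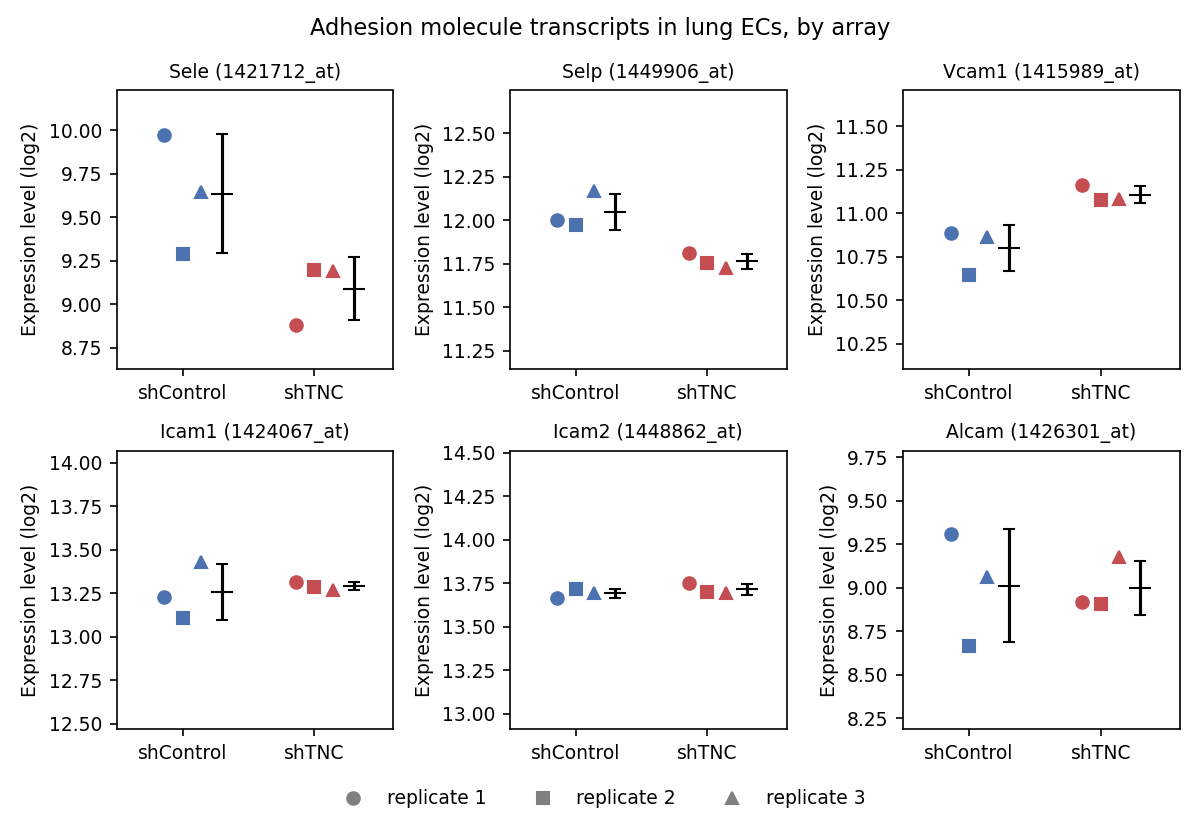
Expression level (log2, y axis) of the 6 adhesion molecule genes at their brightest probe set in shControl and shTNC lung ECs, 1 point per array with the marker shape giving the replicate number, and beside it the mean ± SD (n = 3). Every y axis spans the same number of log2 units; Sele and Selp are lower and Vcam1 higher in shTNC with no overlap, and the groups of Icam1, Icam2 and Alcam overlap.

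The remaining members did not separate the groups. Icam1 (1424067_at), the integrin ligand for LFA-1 and Mac-1, read 13.23, 13.11 and 13.43 in shControl and 13.31, 13.29 and 13.27 in shTNC. The shTNC arrays lay within the range of the shControl arrays, the difference was 0.04 ± 0.10 (SE, n = 3 per group), and its 95% interval ran from -0.20 to 0.27. Icam2 (1448862_at), the constitutive ligand for LFA-1, had levels between 13.67 and 13.75 on all 6 arrays. Its difference was 0.02 ± 0.08 with a 95% interval from -0.16 to 0.21, and 98.8% of genes above background had a larger spread within groups.

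Alcam was the member on which probe sets disagreed. The brightest (1426301_at) read 9.31, 8.66 and 9.06 in shControl and 8.91, 8.91 and 9.18 in shTNC, a difference of -0.01 ± 0.16 (SE, n = 3 per group) with a 95% interval from -0.39 to 0.37. Next to it 1437466_at differed by 0.26 ± 0.17 and 1426300_at by -0.26 ± 0.14, with overlapping groups for both. The other 2 differed by 0.04 ± 0.27 (1437467_at) and -0.06 ± 0.09 (1443086_at), and the last was near background. No direction can be given for Alcam from these probe sets.

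Counted over probe sets, 6 of the 14 had an unadjusted limma p under 0.05, with 3 lower and 3 higher, and the same 6 had groups that did not overlap. They come from Sele, Selp and Vcam1 alone, and probe sets of the same gene are not independent evidence. The members were chosen with earlier results of these data known, so the counts in this paragraph carry no test of the set. Of the whole array, 6.30% of probe sets reached that level in the lower and 6.66% in the higher direction, and groups did not overlap in 10.5% and 8.92%. Counted over genes, with the brightest probe set for each of 18194 genes, 2 of the 6 were lower and 1 higher, against 7.12% and 4.54% of all genes. The median difference was 0.01 over the 6 members and -0.03 over all genes.

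**Figure D2:**
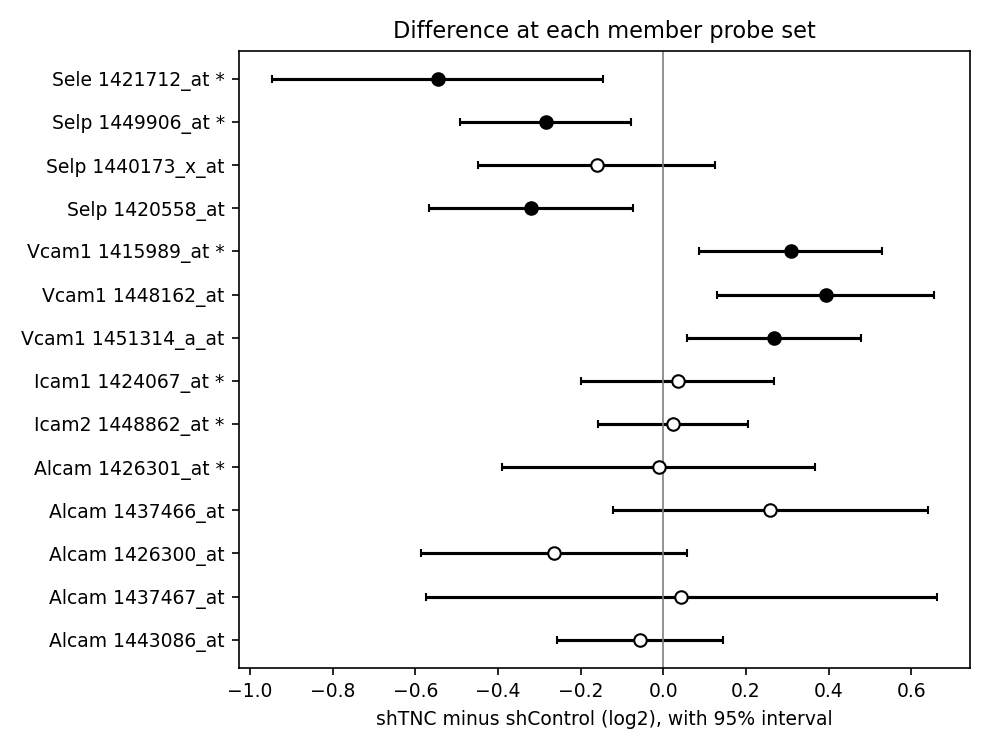
Difference of shTNC minus shControl (log2, x axis) at each of the 14 member probe sets with its 95% interval, for 3 arrays in each group. Points are filled where the unadjusted limma p is under 0.05, and an asterisk marks the brightest probe set of a gene. The 3 Vcam1 points lie to the right of 0, Sele and 2 of the 3 Selp points to the left with intervals that do not reach it, and the Alcam points fall on both sides.

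The opposite directions of Vcam1 and the selectins can be read within each array, where any scaling of the whole array cancels. The log2 ratio of Vcam1 to Sele was 0.91, 1.36 and 1.22 in shControl and 2.28, 1.88 and 1.89 in shTNC. That of Vcam1 to Selp was -1.12, -1.33 and -1.30 in shControl and -0.65, -0.68 and -0.64 in shTNC. Both ratios were higher on every shTNC array, by 0.85 and 0.59 in the mean. Icam1 against Selp was likewise higher, at 1.21 ± 0.06 in shControl (mean ± SD, n = 3) and 1.53 ± 0.02 in shTNC. The size of such a ratio reflects the probes as well as the transcripts, so only its shift between groups can be read. These ratios restate the differences above and carry no test.

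Some members are also made by cells other than ECs. Vcam1 is expressed by fibroblasts, pericytes, mesothelium and some macrophages as well. The marker counts that follow can be set against all 18194 genes, of which 10602 had a negative and 7592 a positive difference. In the limma fit, 7.12% of all genes had a negative difference with an unadjusted p under 0.05, and 4.54% a positive one. Of 11 fibroblast markers, all above background, 8 were higher and 3 lower in shTNC with a median difference of 0.43, and their mean level was 9.91 to 10.41 in shControl arrays and 10.30 to 10.85 in shTNC arrays. Gsn and Mfap4 were the 2 with an unadjusted p under 0.05. Of 11 pericyte and smooth muscle markers 6 were higher, with mean levels of 8.80 to 8.98 and 8.96 to 9.18. Of these, 3 reached an unadjusted p of 0.05 and 0 did so in the lower direction, namely Myh11, Cox4i2 at 0.39 ± 0.10 (SE, n = 3 per group) with no overlap and Postn at 0.44 ± 0.19 with overlapping groups. Of 7 mesothelial markers 5 were higher with a median of 0.73, but Wt1, Lrrn4 and Muc16 were near background, and mean levels were 7.77 to 7.90 in shControl and 7.67 to 8.81 in shTNC. Myh11, a smooth muscle myosin gene, differed by 0.50 ± 0.10 with its other probe set of the opposite sign. Pdgfrb and Pdgfra, genes of the receptors used to exclude such cells in the sort, differed by -0.01 ± 0.17 and -0.01 ± 0.25 at their brightest probe sets. A second Pdgfrb probe set, also above background, read 8.25, 7.81 and 7.63 in shControl and 8.74, 8.48 and 8.81 in shTNC, a difference of 0.78 ± 0.17 with no overlap and the same sign as Vcam1. The other Pdgfra probe sets differed by -0.47 ± 0.23 and, near background, 0.13 ± 0.18. Of 15 macrophage and monocyte markers 12 were lower, with a median of -0.12 and mean levels of 8.96 to 9.09 in shControl and 8.72 to 8.97 in shTNC, and Adgre1, Siglecf and Ccr2 were near background. Of the 15, 4 reached an unadjusted p of 0.05 in the lower and 0 in the higher direction. They were the mannose receptor gene Mrc1 at -0.62 ± 0.14 with no overlap, Chil3, a gene of alveolar macrophages, at -0.69 ± 0.21 with overlapping groups, Cd14 and Itgax. The part of these cells in the differences of Vcam1 and the selectins was not tested. Selp is also made by megakaryocytes and carried by platelets, whose 9 measured markers had a median difference of -0.0008, with Itga2b at -0.16 ± 0.15 and Pf4 at 0.15 ± 0.20, and mean levels of 8.40 to 8.89 in shControl and 8.55 to 8.69 in shTNC. Venous ECs, where selectins are most abundant, had 10 measured markers, 4 lower and 6 higher in shTNC, with a median difference of 0.05. The mean level of these markers was 12.03 to 12.12 in shControl and 12.02 to 12.11 in shTNC. Among them Ackr1 differed by -0.38 ± 0.14 and was the only 1 with an unadjusted limma p under 0.05.

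The partners of the 6 molecules were compared next. Of 17 genes for selectin ligands and the enzymes that decorate them, 0 had an unadjusted p under 0.05, and the median difference was 0.01. Those with the smallest p were Glg1, which encodes the E-selectin ligand ESL-1, at -0.14 ± 0.08 (SE, n = 3 per group), the endothelial sialomucin gene Emcn at -0.16 ± 0.09 and Podxl, a sialomucin gene of the same surface, at 0.13 ± 0.08. Selplg, whose product PSGL-1 is the main ligand of P-selectin on leukocytes, differed by -0.01 ± 0.12. Among 9 leukocyte counter-receptor genes, 2 were lower and 1 higher in shTNC with an unadjusted limma p under 0.05. Of all genes, 7.12% were lower and 4.54% higher at that level. Cd6, which encodes the ALCAM receptor of lymphocytes, had levels of 7.72, 8.17 and 7.83 in shControl and 7.53, 7.60 and 7.54 in shTNC, close to background, and differed by -0.35 ± 0.12. Itgax, an integrin chain of myeloid cells, differed by -0.28 ± 0.11, and Itgb7, a chain of an integrin that binds VCAM-1, by 0.32 ± 0.10. The chains of LFA-1, Itgal and Itgb2, differed by 0.09 ± 0.16 and -0.18 ± 0.13, the VLA-4 chain Itga4 by -0.25 ± 0.20 with 4 of its 5 probe sets of the opposite sign, and Itgam, near background, by -0.25 ± 0.17. The sort removed cells with CD45 or CD11b, so that these values do not describe the leukocytes of the lung.

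Other adhesion and transmigration genes were mostly close between groups. Whether ECs make each of them in these samples was not tested, and Icam5, Cd226 and Aoc3 among them were near background. Of 23 genes, 3 were lower and 0 higher in shTNC with an unadjusted limma p under 0.05, with a median of -0.03. The shares of all genes were 7.12% lower and 4.54% higher. Nectin1, which encodes a cell-cell adhesion molecule, read 9.43, 9.48 and 9.38 in shControl and 9.22, 8.81 and 8.75 in shTNC, a difference of -0.51 ± 0.13 (SE, n = 3 per group). The groups were separate, and its other 2 probe sets had the same sign. Vcan, the gene of the matrix proteoglycan versican, differed by -0.45 ± 0.12 with 6 of 8 probe sets of the same sign, and Jam3, a junctional adhesion molecule gene, by -0.23 ± 0.10. The transmigration genes Pecam1, F11r and Esam differed by -0.03 ± 0.08, -0.06 ± 0.09 and 0.02 ± 0.09.

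The inducers of Sele, Vcam1 and Icam1 were read through the TNF, interleukin 1 and TLR4 route to NF-kB. Of 27 genes, 2 were lower and 1 higher in shTNC with an unadjusted limma p under 0.05, with a median of -0.01. The shares of all genes were 7.12% lower and 4.54% higher. Il1a, the gene of the cytokine interleukin 1 alpha, read 8.06, 7.99 and 8.04 in shControl and 8.93, 8.74 and 8.31 in shTNC, a difference of 0.63 ± 0.15 (SE, n = 3 per group) with no overlap and a limma adjusted p of 0.22. Il1b differed by 0.44 ± 0.21 with overlapping groups. Tnf differed by -0.14 ± 0.13, also with overlapping groups, at a mean level of 7.57, close to background. The sort removed cells with CD45 or CD11b, so these values do not describe cytokines made by leukocytes of the lung. Cd14, a co-receptor of TLR4, read 10.85, 10.76 and 10.63 in shControl and 10.52, 10.38 and 10.36 in shTNC, a difference of -0.32 ± 0.10. Cd14 and Itgax are also macrophage markers, and most markers of that list were lower as given above. Traf6, an adaptor of the interleukin 1 and Toll-like receptors, differed by -0.31 ± 0.10 with 4 of 5 probe sets of the same sign. Among all genes the groups did not overlap for 12.4% in the lower and 7.36% in the higher direction. In 5 of the 27 genes they did not overlap with shTNC lower, and in 1, Il1a, with shTNC higher. Beside Cd14 and Traf6 the lower ones were the NF-kB subunit genes Relb at -0.20 ± 0.09 and Nfkb2 at -0.19 ± 0.09 and the kinase gene Irak1 at -0.16 ± 0.10, of which none had an unadjusted p under 0.05. Other receptor and factor genes had overlapping groups, with Tnfrsf1a at 0.05 ± 0.08, Il1r1 at 0.12 ± 0.10, Tlr4 at 0.07 ± 0.10, the NF-kB subunit Rela at -0.01 ± 0.10 and its inhibitor and target Nfkbia at -0.01 ± 0.10.

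Other genes that ECs induce with cytokines did not share 1 direction. Of 21 such genes, 4 were higher and 1 lower at an unadjusted limma p under 0.05, with a median of 0.02. The shares of all genes were 4.54% higher and 7.12% lower. Ptgs2, the inducible cyclooxygenase, read 9.45, 9.98 and 9.96 in shControl and 10.43, 10.20 and 10.15 in shTNC, a difference of 0.46 ± 0.16 (SE, n = 3 per group) with no overlap. Tnfaip2, a TNF-induced gene, differed by 0.28 ± 0.11, but its other 2 probe sets by 0.02 ± 0.17 and 0.04 ± 0.17. The other 2 higher genes were Il6, near background, and the chemokine gene Cxcl1, at 0.38 ± 0.11 and 0.30 ± 0.12, both named after their values were seen. Ackr1, a chemokine-binding receptor of venules where selectins are also made, read 10.86, 11.01 and 10.52 in shControl and 10.28, 10.44 and 10.54 in shTNC. Its groups overlapped by 1 array, and the difference was -0.38 ± 0.14. Of the 10 venous markers given above, to which Ackr1 belongs, 4 were lower and 6 higher, with a median of 0.05.

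P-selectin reaches the surface from Weibel-Palade bodies, and the genes of that compartment were compared as well. Of 12 genes, 3 were higher and 0 lower at an unadjusted limma p under 0.05, with a median of 0.00. The shares of all genes were 4.54% higher and 7.12% lower. Rab27a, a GTPase of these granules, read 11.52, 11.38 and 11.37 in shControl and 11.66, 11.81 and 11.66 in shTNC, a difference of 0.29 ± 0.09 (SE, n = 3 per group) with no overlap, although 1 of its 4 probe sets had the opposite sign. Its partner gene Myrip, whose product ties the granule to actin, read 11.46, 11.74 and 11.71 in shControl and 11.83, 12.12 and 12.03 in shTNC, a difference of 0.36 ± 0.12. The third was Il6, near background and already counted among the cytokine-induced genes. Vwf, the main cargo, differed by 0.05 ± 0.09, and the cargo gene Angpt2, an antagonist of the TIE2 receptor, by -0.43 ± 0.20 with overlapping groups.

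Genes that anchor or release adhesion molecules came last. Of 12 such genes, 1 was higher and 1 lower at an unadjusted p under 0.05, with a median of 0.07. Ezr, whose product ezrin links VCAM-1 and ICAMs to actin, read 10.16, 9.72 and 9.91 in shControl and 10.56, 10.29 and 10.47 in shTNC, a difference of 0.51 ± 0.13 (SE, n = 3 per group) with no overlap. A second, dimmer Ezr probe set differed by 0.08 ± 0.14. Msn, the related linker moesin, differed by 0.12 ± 0.09. Timp3, an inhibitor of shedding proteases, differed by -0.19 ± 0.08, Rhog, a GTPase that acts beneath clustered ICAM-1, by -0.14 ± 0.08, and the sheddase genes Adam17 and Adam10 by -0.02 ± 0.09 and 0.07 ± 0.10. Across the 8 lists, 9 of 132 genes reached an unadjusted p of 0.05 in the lower and 11 in the higher direction, against the 7.12% and 4.54% of all genes, and 0 passed an adjusted p of 0.05 in limma.

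**Figure D3:**
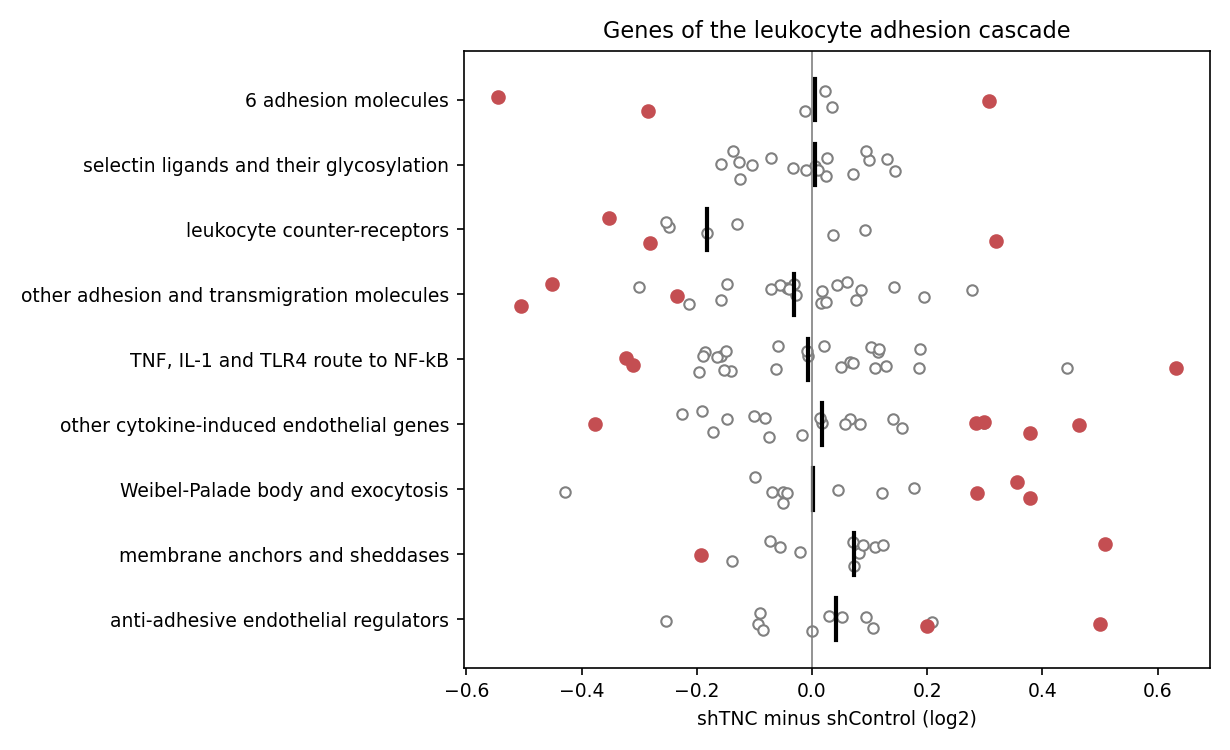
Difference of shTNC minus shControl (log2, x axis) for each gene of the 6 adhesion molecules and of 8 lists of the adhesion cascade, at its brightest probe set. Points are filled where the unadjusted p is under 0.05, and black bars mark list medians. Sele lies at -0.55 and Vcam1 at 0.31, while the medians of the lists lie between -0.18 and 0.07.

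Each array was left out in turn. Where the groups do not overlap this cannot turn the sign, so for Sele, Selp and Vcam1 it shows only how far the size moves. Sele then ranged from -0.72 to -0.38, Selp from -0.32 to -0.22 and Vcam1 from 0.23 to 0.35. Icam2 stayed between 0.005 and 0.036. Icam1 turned to -0.04 without shControl replicate 2, and Alcam ranged from -0.18 to 0.14.

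**Figure D4:**
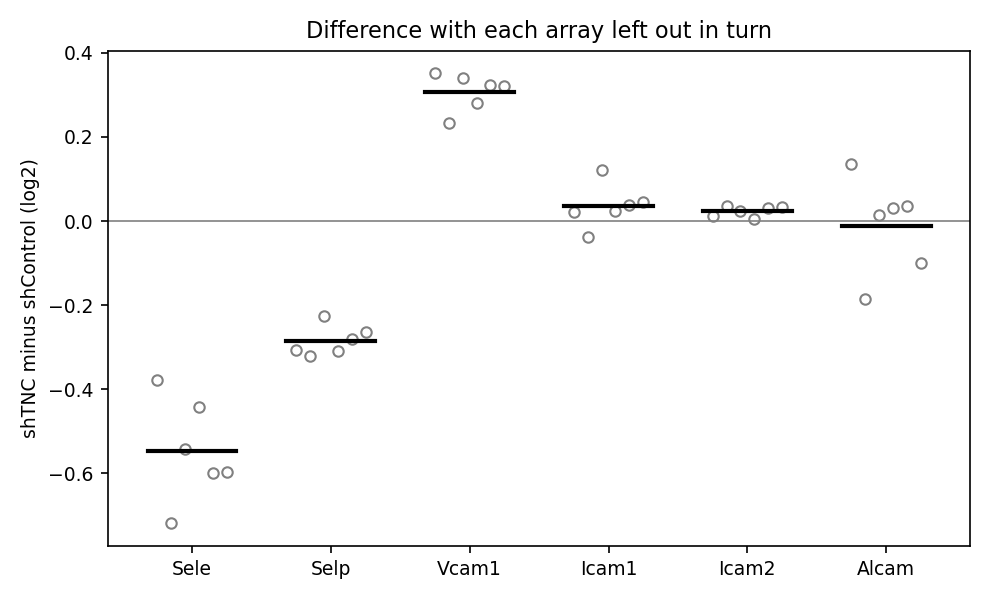
log2 difference between shTNC and shControl (y axis) for each member at its brightest probe set, with the black bar from all 6 arrays and 1 open point for each array left out. Sele spans -0.72 to -0.38, while Alcam spans -0.18 to 0.14 and lies on both sides of 0.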

How the data were processed

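Total RNA of sorted lung ECs was labelled from 2 ng per sample and measured on Affymetrix GeneChip Mouse Genome arrays, 1 array per sample. The authors state RMA normalization of the raw files in Chipster. Each probe set has a log2 level in the deposited table, which the authors had normalized between arrays, and the sorted values of any pair of arrays differed by at most 0.0700. An array held only 5773 to 6883 distinct values, with many ties, and whether the values are RMA output or another summary was not settled. Raw arrays and detection calls were not used here, and the number of arrays limits the precision. Genes were named from the platform annotation, in which 34958 probe sets carried 1 symbol, and a gene was represented by its probe set with the highest mean. All 45101 probe sets, 64 controls included, were fitted in R 4.3.3 by limma 3.58.1 with group as the only term (two-sided moderated test of lmFit and eBayes), and p-values were adjusted over all of them by the Benjamini-Hochberg method. Unadjusted p-values are from that limma fit. The steps were tested on simulated data.

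The members and gene lists were chosen with earlier results of these data known. Of 288 list entries 272 matched the annotation. Text names all member probe sets, the 3 genes above background with the smallest p in each list, direct binding partners, sort markers, and a few background genes of each list that were chosen after their values were seen. The alternatives were quantile normalization, median centring, leaving out probe sets near background, trended robust eBayes, array weights, 1 probe set or the mean of probe sets per gene, the replicate number as a block, and leaving out each array. The samples are labelled as biological replicates. For same-numbered samples the correlations of deviations from the group means were -0.113, 0.0384 and 0.144. With 3 samples per group these values cannot settle whether the numbers pair samples. The labels do not state a pairing, so none was used in the main fit.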

Additional observations from a re-analysis of the deposited data

How the results depend on the processing

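All 6 members stayed on the same side of the adjusted threshold, with 0 of 6 past it under all 14 alternatives, and Sele, Selp, Vcam1 and Icam2 kept their sign in all of them, which for Sele, Selp and Vcam1 the separation of the groups fixes when an array is left out. Over all probe sets, the number past an adjusted p of 0.05 was 0 with all arrays, 9 with an intensity trend and robust eBayes, 1 with 1 probe set per gene, 1 with the mean of a gene's probe sets, and 0 to 4 with each array left out, and none of these was among the 6 members. Of the 132 genes of the adhesion lists, 20 had an unadjusted limma p under 0.05, and between 13 and 24 with each array left out, the fewest without shControl replicate 1, shTNC replicate 1 or shTNC replicate 2. Of the 6 members 3 did, and 2 or 3 with each array left out. Icam1 ranged from -0.038 to 0.12 and Alcam from -0.18 to 0.14 over these left-out arrays, and the Alcam probe set 1437467_at from -0.23 to 0.33, with -0.14 under array weights. The cause was not tested. With the replicate block Sele differed by -0.55, Selp by -0.28 and Vcam1 by 0.31, with adjusted p of 0.33, 0.35 and 0.32, and the block changed no call.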

Other observations

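A list of genes set up as regulators that restrain endothelial adhesion was also measured. Whether each of them restrains adhesion, or is made by ECs, in these samples was not tested. Of its 12 genes, 2 were higher and 0 lower in shTNC at an unadjusted p under 0.05 in limma. The shares of all genes were 4.54% and 7.12%, and the median difference of the list was 0.04. Angpt1, the gene of the TIE2 agonist angiopoietin 1, read 8.00, 8.53 and 8.28 in shControl and 8.78, 8.46 and 9.06 in shTNC, a difference of 0.50 ± 0.18 (SE, n = 3 per group) with overlapping groups, and its second probe set differed by 0.52 ± 0.15. Cav1, the gene of the caveolar coat protein, read 13.30, 13.28 and 13.26 in shControl and 13.45, 13.50 and 13.49 in shTNC, a difference of 0.20 ± 0.08. Ptgis, the prostacyclin synthase gene, differed by 0.21 ± 0.13, and Klf2, a flow-induced transcription factor gene that holds adhesion molecules low, by 0.03 ± 0.18.

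The genes with profiles most like those of 4 members were found by the root mean square difference of centred log2 values over the 6 arrays, among 13444 genes above background. For Sele they were 1700017B05Rik, Vcan and Tubb6, at 0.072, 0.12 and 0.12 against a spread of Sele itself of 0.35. For Selp they were Map1b, Tada3 and Ric1, at 0.031, 0.034 and 0.035 against 0.16. For Vcam1 they were Mrps25, Dhrs7 and Zbtb18, at 0.039, 0.040 and 0.040 against 0.17, and for Icam1 they were Fut4, Arpp19 and Gpbp1, at 0.017, 0.022 and 0.023 against 0.095. No shared function or control follows from this likeness.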
